A study of Mus musculus with 7 samples.

Results

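The genes described here belong to insulin-like growth factor (Igf) signalling: the ligand Igf1, its receptor Igf1r and the binding proteins Igfbp2, Igfbp3, Igfbp4, Igfbp5, Igfbp6 and Igfbp7. They were chosen by name: every probe on the array that was not a control and carried 1 of these 8 symbols was taken, which gave 8 of 27126 named genes, with 13 probes on 18 spots. RNA of sorted mouse embryo cells was measured on single-colour Agilent arrays, with 1 array for each of 7 populations. All cells came from C57BL6J embryos with a knock-in of green fluorescent protein (GFP) at Osr1, which is active in early intermediate mesoderm and its lateral neighbour. At E8.5 the GFP-positive and the GFP-negative cells of the embryo were sorted. At E9.5 the caudal part of the embryo gave 3 populations: gated cells, which were GFP-positive, carried the integrin Itga8 and lacked the receptor Pdgfra; GFP-positive cells outside that gate, called other cells here; and GFP-negative cells. At E11.5 the metanephric mesenchyme, from which nephrons and renal stroma arise, gave gated and other GFP-positive cells. The design set gated against other GFP-positive cells to ask what sets nephron progenitors apart from the mesenchyme around them. The labels do not say whether the knock-in was heterozygous or how many embryos were pooled, and "other" cells are defined only by lying outside the gate.

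Igf1 and Igf2 are secreted growth factors that activate Igf1r, a receptor tyrosine kinase, which recruits insulin receptor substrate adaptors and switches on the PI3K and Akt pathway. Most extracellular Igf is held by binding proteins, which carry it, keep it from the receptor or release it near cells once proteases such as Pappa cut them. In the embryo this pathway drives growth of many tissues, and the developing kidney makes the ligands, the receptors and several of the binding proteins.

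With 1 array per population there were no replicates, so no test was run, and each fold is a difference between 2 arrays whose spread between embryos and sorts is unknown. The only error that could be measured was between spots of 1 array: 399 probes spotted 10 times had a log2 standard deviation of 0.13, which makes 0.18 when 2 arrays are compared. Levels are on the log2 scale, relative to the 75th percentile of the signals of an array. A fold against a side that was not well above background is called a bound and is given as "at least". That side took the lowest well-above level of its array, or its own level where that was higher. In the second case the fold is the plain difference from a signal not well above background, and not a strict minimum. Igfbp3 in the E11.5 gate is an example, at -5.03 against a lowest well-above level of -5.12. A 2-fold difference was the threshold for a count. Between 56.2% and 84.1% of spots were well above background, and no spot was saturated. The lowest share was on the E8.5 GFP-negative array and the highest on that of E9.5 other cells. The remaining arrays lay between 70.3% and 74.0%. What this adds to folds of dim genes against the E9.5 other array was not tested. The arrays of E9.5 gated and E9.5 GFP-negative cells lay on 1 slide and the other 5 arrays on another. Where an array of the first slide is compared with 1 of the second, slide and population cannot be told apart. Of the sort genes, Osr1 was not well above background on either GFP-negative array. Pdgfra was not well above it in the E11.5 gate, at -5.92 against 4.04 in other cells, but was in the E9.5 gate, at -0.52 against 3.44. Of 9 nephron progenitor markers, 9 were well above background in each gate. The count was 8 in E9.5 other, E11.5 other and E8.5 GFP-positive cells, 7 in E9.5 GFP-negative and 6 in E8.5 GFP-negative cells. Among them, Eya1 lay between 8.65 and 9.01 on every array. In E9.5 cells the median level of the 9 markers was 2.32 inside the gate and 1.59 outside it. There 6 were higher in the gate past 2-fold and Hoxd11 and Cited1 lower. The E11.5 medians were 4.01 for gated and -0.38 for other cells. In sorted populations measured in bulk, fewer cells of a type and less RNA per cell cannot be told apart.

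Igf1, the growth factor itself, gave different answers by probe, and its overlapping probes at transcript positions 889 and 909 showed it higher in both GFP-positive populations of E9.5 than in GFP-negative cells and far lower in the E11.5 mesenchyme. The array held 5 Igf1 probes, each on 2 spots. They are named here by the position in the transcript that the array files give. In mm9 (NCBI37) coordinates on the plus strand they lie at chr10:87393561-87393620 (position 889), chr10:87393581-87393640 (position 909), chr10:87395924-87395983 (position 3252) and chr10:87399581-87399640 (position 6909), all assigned to transcript NM_010512, and at chr10:87378456-87378515 (position 1027), assigned to transcript NM_184052. The last lies upstream of the other 4 along the gene. No mm9 annotation was used here, so the exon of each probe is not given. Because the probes disagree, 30 bases of each 60-base probe are shown, 5′ to 3′; capitals mark the 10 bases that the printed stretches of the 889 and 909 probes share, and the whole probes overlap by 40 bases.
Igf1 889: cctaccaaataacaataataAGTCCAATAA
Igf1 909: AGTCCAATAAcattacaaagatgggcattt
Igf1 1027: aaccattaaaaacatgccaccaagaccttc
Igf1 3252: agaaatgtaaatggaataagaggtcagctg
Igf1 6909: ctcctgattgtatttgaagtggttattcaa
The 889 and 909 probes therefore sample nearly the same stretch of RNA and are not independent of each other. Their levels over the 7 arrays had a Pearson correlation of 1.0.

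At the 909 probe the processed signal was 153 in E8.5 GFP-positive and 320 in E8.5 GFP-negative cells. In E9.5 cells it was 349 inside the gate, 343 outside it and 79.3 without GFP, and at E11.5 it was 18.6 inside the gate and 27.4 outside it. On the level scale these were -0.73 and 0.47 at E8.5, 0.41, 0.41 and -1.92 at E9.5, and -3.75 and -3.41 at E11.5. The E8.5 GFP-negative array and the 2 GFP-positive arrays of E9.5 were thus high, within 0.06 of one another, the E8.5 GFP-positive array was lower, and both E11.5 arrays lay at the bottom. The 2 spots of this probe differed by a median of 0.12 and at most by 0.31 on any array.

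In E9.5 cells Igf1 by the 909 probe was 5.03-fold higher in gated than in GFP-negative cells, which shared a slide, and 5.02-fold higher in other GFP-positive than in GFP-negative cells. Gated and other GFP-positive cells differed by 0.00 on the log2 scale. At E8.5 the order was the opposite one, with GFP-negative cells 2.3-fold above GFP-positive cells. From E9.5 to E11.5 the signal was 17.9-fold lower in the gate and 14.1-fold lower in the other GFP-positive cells. Gated cells stood 0.34 below other cells at E11.5 (log2 difference -0.34), close to the largest gap of 0.31 between the 2 spots of an array. With normexp background correction, which adds an offset of 50 to every signal, these log2 differences shrank to 1.70 and 1.66 at E9.5, -2.37 in the gate and -2.34 in other cells from E9.5 to E11.5, and -0.96 at E8.5.

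The overlapping 889 probe, with populations listed as above, had levels of -0.82 and 0.14 at E8.5, 0.48, 0.38 and -2.08 at E9.5, and -4.07 and -3.26 at E11.5. Its highest array was that of the E9.5 gate, whereas the 909 probe was highest in E8.5 GFP-negative cells. Its differences from GFP-negative cells at E9.5 were 5.92-fold for gated and 5.49-fold for other GFP-positive cells, and from E9.5 to E11.5 it was 23.6-fold lower in the gate and 12.5-fold lower in other cells. With normexp correction the log2 differences between the stages went from -4.56 to -2.48 in the gate and from -3.64 to -2.32 in other cells. In the E11.5 gate its 2 spots differed by 0.87 and 1 of them was not well above background.

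The remaining Igf1 probes did not share this pattern in full. At position 6909 levels were -3.73 and -2.37 at E8.5, -2.11, -1.82 and -2.52 at E9.5, and -3.91 and -6.66 at E11.5, the last not well above background. This probe was also lower at E11.5, by 3.47-fold in the gate and at least 9.3-fold in other cells, but its gated and GFP-negative levels at E9.5 were 0.40 apart. At E8.5 all 5 probes read lower in GFP-positive than in GFP-negative cells. The 6909 probe was 2.55-fold lower, a log2 difference of -1.35 that normexp correction took to -0.56. Its 2 spots differed by at most 0.98, in other cells of E11.5. In contrast to the 909 probe, it was at least 2.19-fold higher in gated than in other cells at E11.5; normexp correction took this log2 difference from 1.13 to 0.40, and those between the stages from -1.80 to -0.63 in the gate and from -3.22 to -1.16 in other cells. At position 3252 levels were -2.44, -1.60, -1.17, -1.09, -2.05, -1.76 and -2.32 over the 7 arrays in the same order. Its only difference past 2-fold among the 7 comparisons was 2.35-fold lower in E11.5 than in E9.5 other cells, a log2 difference of -1.23 that normexp correction took to -0.77. The 2 spots of this probe differed by at most 0.71, in E8.5 GFP-positive cells. At position 1027 levels were -0.68, -0.25, -0.65, -0.35, -0.35, -0.70 and -0.40, a span of 1.36-fold over all populations. This flat probe had the highest mean level of the 5 and so represents Igf1 in the counts over all members. Its transcript, NM_184052, was the 1 member accession with no match in the RefSeq table used here, and what the probe reads is not settled. Which of the Igf1 transcripts each probe reads was not tested.

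**Figure D1:**
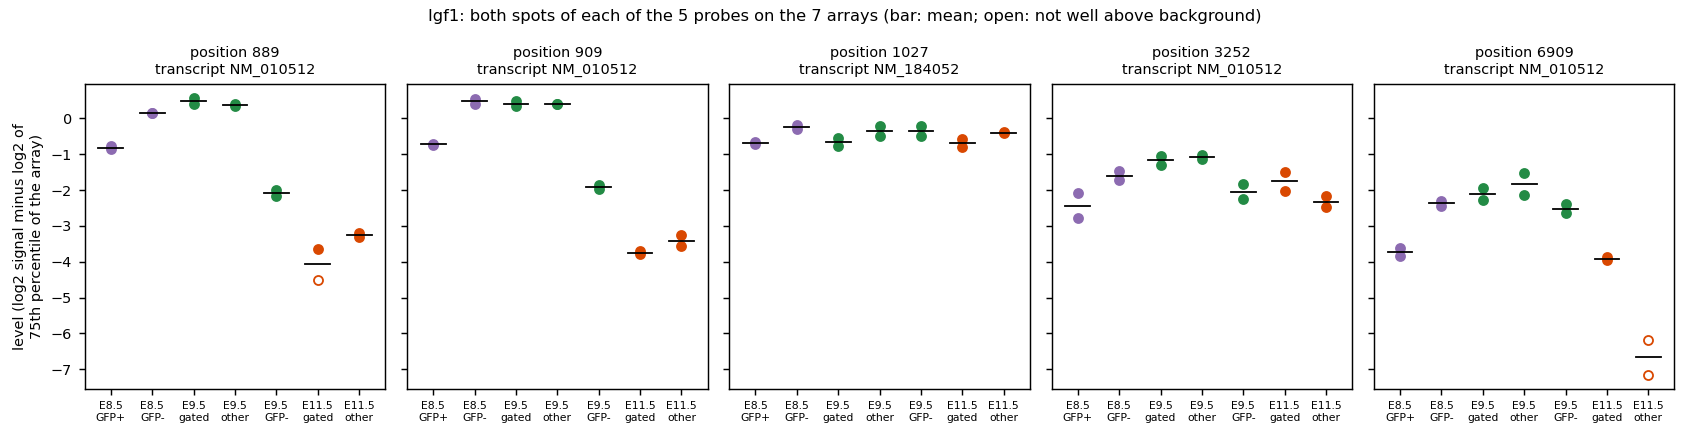
Levels of Igf1 at each of its 5 probes on the 7 arrays. Points are spots, bars are their means, and open points are not well above background; the vertical axis is the log2 level relative to the 75th percentile of the array. The 889 and 909 probes run from about 0.4 in E9.5 GFP-positive cells to below -3 at E11.5, while the 1027 probe stays between -0.70 and -0.25.

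The median level of endothelial markers was also lower on the E11.5 arrays. All 9 of a list of 9 (Pecam1, Cdh5, Kdr, Tek, Emcn, Cldn5, Sox17, Esam and Flt1) were well above background on each of the E8.5 and E9.5 arrays and 5 on each E11.5 array, where Cdh5, Tek, Sox17 and Flt1 were not. Their median level was -0.91 and -1.55 at E8.5, -0.50, -2.24 and -1.84 at E9.5, and -4.16 and -4.75 at E11.5. Their summed level ranged from 1.74 to 3.56 on the log2 scale. Not every marker followed the median. Kdr stood at 1.45 and 1.55 at E11.5, close to its 1.67, 1.38 and 1.27 at E9.5. Emcn was higher in E11.5 other cells (-3.27) than in E8.5 GFP-positive cells (-3.67). Between gated and GFP-negative cells of E9.5, 5 of the 9 markers were higher past 2-fold and 0 lower, with a median log2 difference of 1.09. Between other GFP-positive and GFP-negative cells it was 2 higher and 0 lower, with a median of 0.11 and summed levels of 2.54 and 2.31. At E8.5, where Igf1 was lower in GFP-positive cells by the 909 probe, 4 markers were higher in them and 0 lower, with a median of 0.66. The part of these cells in the Igf1 differences was not tested.

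Igf1r, the receptor through which Igf1 and Igf2 act, was almost level across the populations. Its signal was 1000 and 1150 at E8.5, 987, 1060 and 1530 at E9.5, and 1420 and 1490 at E11.5 in the order used above, from a probe at chr7:75378461-75378520 (mm9, plus strand). The corresponding levels were 1.98, 2.31, 1.91, 2.03, 2.35, 2.50 and 2.36, so that the highest, in the E11.5 gate, was 1.5-fold above the lowest, in the E9.5 gate. The log2 difference was 0.59 between the E11.5 and E9.5 gates and -0.44 between gated and GFP-negative cells of E9.5. Both were larger than the 0.18 expected of spot noise, and both were under 2-fold.

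Igfbp5, a binding protein that also attaches to extracellular matrix, was highest in the E11.5 gate. Its signal at E8.5 was 1190 with GFP and 665 without. All 3 populations of E9.5 were high and close together, at 3450, 3460 and 4330. At E11.5 gated cells reached 5020 and other GFP-positive cells 1400. Levels were 2.23, 1.53, 3.72, 3.74, 3.85, 4.32 and 2.27. The E11.5 gate was the highest array and the other E11.5 cells were 0.04 from the level of E8.5 GFP-positive cells. Igfbp5 was 4.15-fold higher in gated than in other cells at E11.5, a log2 difference of 2.05 that was 1.91 with normexp correction. Between the stages it was 2.78-fold lower at E11.5 in other cells and 1.52-fold higher in the gate. The probe lies at chr1:72904829-72904888 (mm9, minus strand).

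Igfbp6, which prefers Igf2 to Igf1 as its ligand, was well above background on 1 of 7 arrays, that of the E11.5 gate. Its signal there was 53.5, against 4.33 in the other E11.5 cells. On the remaining arrays it was 5.0 and 4.62 at E8.5 and 13.5, 9.47 and 10.9 at E9.5. In terms of levels, the E11.5 gate stood at -2.23 and the 6 arrays without a usable signal between -6.07 and -4.28. Igfbp6 was thus at least 7.01-fold higher in gated than in other cells of E11.5, and at least 4.14-fold higher in the E11.5 than in the E9.5 gate. This is a dim gene: with normexp correction the log2 differences were 0.97 and 0.72, both under 2-fold. The probe lies at chr15:101979852-101979911 (mm9, plus strand).

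Igfbp2, a binding protein with an integrin-binding motif, had 2 probes that differed on the E11.5 gate. Of each 60-base probe, 30 bases are shown because the readings part here; the stretches share no marked bases.
Igfbp2 946: catctcttctacaacgagcagcaggagact
Igfbp2 1082: aggagttcccagttttgacacatgtattta
They lie at chr1:72898677-72898736 and chr1:72898813-72898872 (mm9, plus strand), both assigned to NM_008342. At the 1082 probe, which represents the gene, signals were 152 and 270 at E8.5, 402, 222 and 606 at E9.5, and 311 and 168 at E11.5. At the 946 probe they were 93.6 and 153, then 219, 150 and 327, and then 89.4 and 117. Both probes had the E9.5 GFP-negative array highest and the E9.5 gate next. At E11.5 the 1082 probe was 2.14-fold higher in gated than in other cells, whereas the 946 probe differed by -0.18 on the log2 scale, so the gate difference at E11.5 rests on 1 probe. The log2 difference of 1.10 at the 1082 probe was under the threshold with normexp correction (0.87) and in the unscaled value table (0.89), and the mean over both probes gave 0.46. In E9.5 the 1082 probe was 2.35-fold lower in other GFP-positive than in GFP-negative cells and the 946 probe 1.88-fold lower. Between the gates of E9.5 and E11.5, the 946 probe was 2.34-fold lower at E11.5 and the 1082 probe 1.24-fold lower. At E8.5 GFP-positive cells were 1.96-fold lower than GFP-negative cells by the 1082 probe, just short of the threshold.

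Igfbp4, a binding protein that Pappa cleaves to release Igf, had a different profile. Signals at E8.5 were 338 with GFP and 106 without. They were 429, 478 and 283 at E9.5, and 133 and 354 at E11.5 for gated and other cells. The levels of 0.41, -1.12, 0.71, 0.89, -0.09, -0.91 and 0.28 put the E8.5 GFP-negative cells and the E11.5 gate at the bottom. At E8.5 it was 2.9-fold higher in GFP-positive cells, and with normexp correction the log2 difference of 1.54 was 1.08. At E9.5 it was 1.73-fold and 1.96-fold higher in gated and other GFP-positive cells than in GFP-negative cells, under the threshold. At E11.5 it was 2.3-fold lower in gated than in other cells (-0.92 on the log2 scale with normexp correction, against -1.20), and the E11.5 gate was 3.08-fold below the E9.5 gate. Its probe is at chr11:98913334-98913393 (mm9, plus strand).

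Igfbp3, the main carrier of Igf in adult blood, was dim and well above background on 4 of 7 arrays, the 3 of E9.5 and the other cells of E11.5. Its levels at E9.5 were -2.68, -2.37 and -2.89 in gated, other and GFP-negative cells, within 0.52 of one another. At E11.5 they were -5.03 in gated and -4.38 in other cells, and at E8.5 -5.84 and -3.53. The E8.5 GFP-negative value was not well above background on an array where the lowest level that was stood at -3.46, the highest such limit of the 7. Igfbp3 was at least 5.09-fold lower in the E11.5 than in the E9.5 gate and 4.03-fold lower in the E11.5 than in the E9.5 other cells. With normexp correction both were under 2-fold, with log2 differences of -0.56 and -0.72. The probe lies at chr11:7106594-7106653 (mm9, minus strand).

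Igfbp7, a related protein that binds Igf weakly and is known from blood vessels, differed by no more than 2.12-fold between any 2 populations. Its signals were 898 and 750 at E8.5, 745, 837 and 1140 at E9.5, and 493 and 520 at E11.5. Both E11.5 arrays were the lowest. No comparison of the design passed 2-fold: the largest was between other cells of E11.5 and E9.5, 1.81-fold lower at E11.5. The probe is at chr5:77778271-77778330 (mm9, minus strand).

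**Figure D2:**
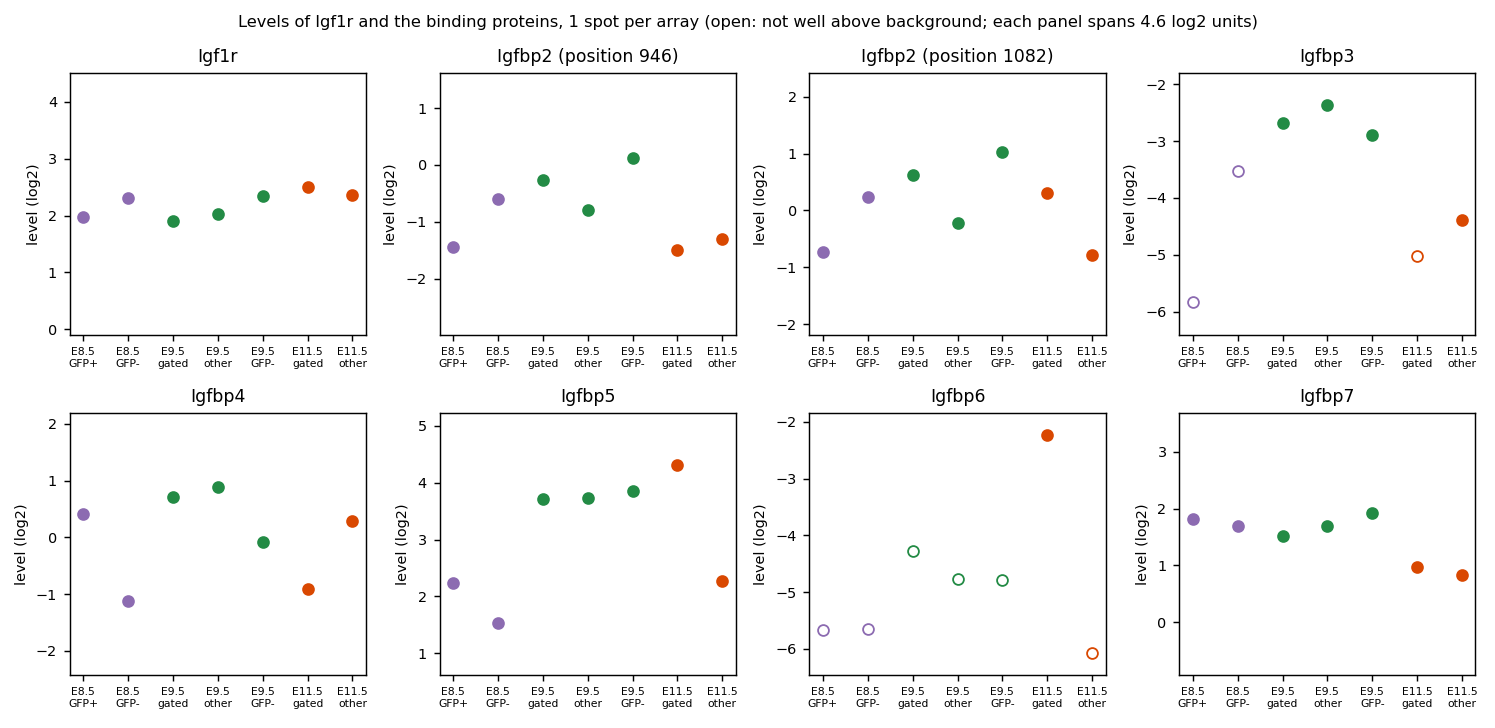
Levels of Igf1r and the 6 binding proteins on the 7 arrays, with 1 spot per array and both probes of Igfbp2; open points are not well above background. The vertical axes are log2 levels relative to the 75th percentile of the array, and each spans the same number of log2 units around its own values, so levels should not be read across panels. Igfbp5 and Igfbp6 are highest in the E11.5 gate, at 4.32 and -2.23, and Igf1r stays between 1.91 and 2.50.

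Gated and other cells of the E11.5 mesenchyme differed in 4 of 8 members past 2-fold. Igfbp5, Igfbp6 and Igfbp2 were higher in the gate, where 10.5% of all 21628 genes with a fold were, and Igfbp4 was lower, where 9.46% were. Igfbp2 passed 2-fold at its 1082 probe only. With normexp correction Igfbp5 alone stayed past 2-fold. The median over the members was a log2 difference of 0.14 and that over all genes 0.15. With 1 array a side, the part of chance in this count was not tested, and both arrays lay on 1 slide. Stromal markers stood apart between the same arrays. Of 9 (Foxd1, Tbx18, Tcf21, Pdgfrb, Prrx1, Twist1, Col1a1, Col1a2 and Col3a1), 7 were well above background in the gate, all but Tbx18 and Twist1, and 9 in the other cells. Their summed level was 2.79 in the gate and 7.59 in the other cells on the log2 scale, and ranged from 4.37 to 5.92 on the E8.5 and E9.5 arrays. Their part in the differences was not tested.

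Gated and other cells of E9.5, in contrast, differed past 2-fold in 0 of 7 measured members, where 5.15% of 23553 genes were higher in the gate and 9.4% lower. The largest difference was Igfbp2, 1.78-fold higher in the gate, and the median was -0.18 against -0.15 over all genes. The arrays lay on different slides. That members passed 2-fold between gated and other cells at E11.5 and not at E9.5 was not tested.

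Against GFP-negative cells of E9.5, gated cells had 0 of 7 measured members past 2-fold, with 5.67% of all genes higher and 6.42% lower. Other GFP-positive cells had 1 of 7, Igfbp2, which was lower, with 8.58% of all genes higher and 5.17% lower. The medians were -0.30 and -0.11, against 0.01 and 0.14 over all genes. These comparisons share the GFP-negative array. Read with its 909 probe, a choice made after the values were seen, Igf1 would add 1 higher member to each. The GFP-negative array stood out for red cell markers (a summed level of 10.16, with 8 of 8 well above background, against 0.79 with 3 and 3.32 with 7 in gated and other cells) and neural markers (4.64 against 0.77 and 0.52), and their part in the differences was not tested.

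At E8.5, 1 of 6 measured members passed 2-fold, Igfbp4, higher in GFP-positive cells, where 7.82% of 18058 genes were higher and 6.77% lower. The median was -0.11, against 0.05 over all genes, and the 909 probe of Igf1 would add 1 lower member. Red cell markers had a summed level of 11.04 in GFP-negative and 2.72 in GFP-positive cells, with 8 and 6 of 8 well above background, and their part was not tested here either.

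From E9.5 to E11.5, 3 of 8 members passed 2-fold in the gate, Igfbp6 higher and Igfbp3 and Igfbp4 lower, with 6.07% of all genes higher and 11.9% lower. In other GFP-positive cells it was 2 of 7, Igfbp3 and Igfbp5, both lower, with 22.2% of all genes lower and 6.38% higher. The medians were -0.18 and -0.60, against -0.03 and -0.36 over all genes. The 909 probe of Igf1 would add 1 lower member to both. The gate comparison spans 2 slides, and E9.5 cells were taken caudally in the embryo and E11.5 cells from the metanephric mesenchyme, so stage and tissue cannot be told apart either. Markers of other cell types differed between the same arrays past 2-fold. Of 7 endoderm and epithelium markers, which share Sox17 with the endothelial list, 3 of 4 measured were lower at E11.5 in the gate (median log2 difference -3.01) and 7 of 7 in other cells (-4.38), with 4, 7, 3 and 3 well above background and summed levels of 2.64, 4.13, 0.25 and -0.42 in the E9.5 gate, E9.5 other cells, E11.5 gate and E11.5 other cells. Endothelial markers were lower in 7 of 9 in the gate and 6 of 9 in other cells. Stromal markers were lower in 6 of 9 in the gate, with 1 higher, and higher in 5 of 9 in other cells. Their part in the differences was not tested.

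**Figure D3:**
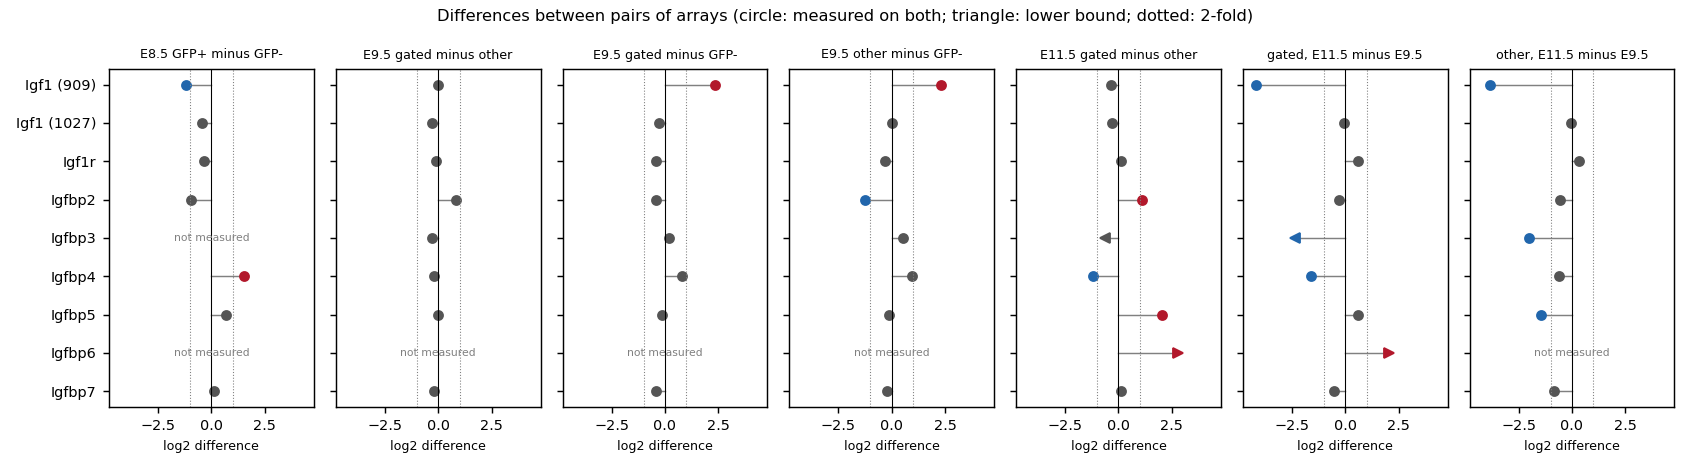
Log2 differences of the members in the 7 comparisons, with the 909 and 1027 probes of Igf1 side by side and Igfbp2 by its 1082 probe. Circles are measured on both arrays, triangles are bounds as defined in the text, dotted lines mark 2-fold, and red and blue mark higher and lower past it. The panel for E11.5 gated minus other cells holds 4 members past 2-fold and that for E9.5 gated minus other cells none.

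The promoters of the 4 members that passed 2-fold between the E11.5 populations are shown to set their start regions side by side. They are the 250 bases before the transcription start in RefSeq's GRCm38.p6 assembly, a different build from the probes, printed 5′ to 3′ on the strand of the gene. All 8 members had an entry. Igfbp2 had 2 listed starts, and that nearest the 5′ end of its gene model was taken. Capitals mark matches on either strand to strings like a TATA box or a GC box. The strings searched were TATAAA, held by 12.4% of 32851 promoters of this length, TATATA, held by 5.25%, then TATTTAA, held by 4.18%, and last GGGCGG, held by 32.7%. No match of 1 string overlapped a match of another in the members.
Igfbp5 chr1:72874866-72875115 minus strand: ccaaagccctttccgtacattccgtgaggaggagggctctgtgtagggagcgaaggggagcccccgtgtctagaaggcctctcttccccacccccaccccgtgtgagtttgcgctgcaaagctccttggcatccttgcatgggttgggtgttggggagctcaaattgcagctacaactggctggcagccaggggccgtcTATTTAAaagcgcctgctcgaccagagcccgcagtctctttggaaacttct
Igfbp6 chr15:102143936-102144185 plus strand: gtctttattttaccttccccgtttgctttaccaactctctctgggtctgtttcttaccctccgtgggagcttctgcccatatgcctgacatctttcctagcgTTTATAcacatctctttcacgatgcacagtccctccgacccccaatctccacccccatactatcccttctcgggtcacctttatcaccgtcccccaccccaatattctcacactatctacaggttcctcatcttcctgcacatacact
Igfbp2 chr1:72824230-72824479 plus strand: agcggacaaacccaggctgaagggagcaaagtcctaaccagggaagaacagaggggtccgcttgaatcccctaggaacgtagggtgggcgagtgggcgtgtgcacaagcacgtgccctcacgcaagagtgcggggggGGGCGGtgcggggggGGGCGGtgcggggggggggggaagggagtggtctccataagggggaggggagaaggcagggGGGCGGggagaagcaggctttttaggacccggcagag
Igfbp4 chr11:99040994-99041243 plus strand: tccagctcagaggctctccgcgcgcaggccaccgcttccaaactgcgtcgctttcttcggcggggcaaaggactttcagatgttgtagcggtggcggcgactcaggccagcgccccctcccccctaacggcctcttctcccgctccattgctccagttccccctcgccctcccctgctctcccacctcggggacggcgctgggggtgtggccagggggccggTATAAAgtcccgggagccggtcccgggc
TATTTAA began 51 bases before the start of Igfbp5 and TATAAA 28 bases before that of Igfbp4. In Igfbp6 TATAAA lay on the opposite strand, 148 bases before the start, and Igfbp2 held GGGCGG 3 times, at 113, 98 and 37 bases. Of the remaining members, Igfbp3 held TATATA at 30 bases, Igf1r GGGCGG 2 times and Igfbp7 4 times, and Igf1 none of the strings. These matches describe the letters and say nothing of binding. Igfbp2 and Igfbp5 are neighbours on chromosome 1, with 5.6 kb between them in GRCm38.p6 and opposite strands. Igfbp1 and Igfbp3 are neighbours on chromosome 11, with 3.5 kb between.

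Likeness between profiles was described by Pearson's correlation over the 7 arrays, which share their scaling. Genes that spanned at least 2 log2 units and were well above background on at least 4 arrays were eligible, 4877 in all, among them Igfbp3, Igfbp4 and Igfbp5. Closest to Igfbp5 were Cyfip2 (0.965), Fzd8 (0.963) and 5930433N17Rik (0.959). Closest to Igfbp4 were 4732463B04Rik (0.980), Nacad (0.971) and Ppp4r4 (0.964), and to Igfbp3 Olfr538 (0.940), Dcp1b (0.939) and A930009E08Rik (0.929). For the 909 probe of Igf1, added after its values were seen, they were Colec10 (0.960), Acta2 (0.945) and Tie1 (0.941). Picking the closest of 4877 genes over 7 arrays favours high values, and shared regulation was not tested. Igfbp3 was well above background on 4 of the 7 arrays, so its correlations rest in part on values that were not.

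Of 41 other genes of the pathway, 8 of 40 measured differed past 2-fold between gated and other cells at E9.5, 2 higher and 6 lower, where 5.15% of all genes were higher and 9.4% lower. At E11.5 it was 6 of 38, 4 higher and 2 lower, where 10.5% of all genes were higher and 9.46% lower. Their medians were 0.11 and 0.05, against -0.15 and 0.15 over all genes. The folds of these genes below are all without normexp correction, which took those of the dim members Igfbp3 and Igfbp6 under 2-fold. Gated and other cells of E9.5 also lay on different slides.

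Among the 3 other ligands, Igf2, the main Igf of the embryo, was strong in each population, with levels of 5.13 and 3.33 at E8.5, 5.13, 4.75 and 3.70 at E9.5, and 4.62 and 5.32 at E11.5. The 2 GFP-negative arrays were the lowest. It was 3.47-fold higher in GFP-positive cells at E8.5, and 2.69-fold and 2.06-fold higher in gated and other cells than in GFP-negative cells at E9.5. Between gated and other cells it was 0.71 lower in the E11.5 gate on the log2 scale, under 2-fold, and neither insulin gene passed 2-fold in any comparison that measured it. Of the 3 other receptors, Igf2r, which takes up Igf2 for degradation, was 2.12-fold higher in GFP-positive cells at E8.5 and 2.06-fold higher in other GFP-positive than in GFP-negative cells at E9.5. Insrr, a relative of the insulin receptor, was dim, with levels between -4.93 and -2.52. It was highest in other cells of E9.5, at least 4.26-fold above the gate and 2.47-fold above GFP-negative cells, and 2.48-fold lower in E11.5 than in E9.5 other cells. Insr, the insulin receptor, did not pass 2-fold in any of the 7 comparisons.

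Of 5 genes for proteins that cut binding proteins or block that cutting, Stc1 was higher in the gate at both stages. Stc1, a stanniocalcin that inhibits Pappa, was dim. It was well above background on 2 arrays, both of gated cells, at levels of -2.53 (E9.5) and -2.41 (E11.5). Its signal was at least 4.09-fold higher in gated than in other cells at E9.5 and at least 6.19-fold at E11.5. Both folds are without normexp correction, and the E9.5 arrays compared lay on different slides. The related Stc2 was 2.63-fold lower in the gate at E9.5. The serine protease Htra1 was at least 2.65-fold lower in the gate at E9.5. Pappa itself had levels of 1.16 in the E9.5 gate and -0.01 in the E11.5 gate, 2.25-fold lower at E11.5. Among the 3 other binding proteins, Igfbp1 was at least 3.23-fold lower in the gate than in other cells at E9.5. Igfbpl1 was at least 6.65-fold and at least 6.7-fold lower in gated and other cells than in GFP-negative cells of E9.5.

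Of the 6 adaptors, Irs1, which couples the receptor to PI3K, had levels of 2.33 and 1.01 at E8.5, 1.54, 2.40 and 2.89 at E9.5, and 0.27 and 2.10 at E11.5. The E11.5 gate was the lowest array. It was 3.57-fold lower in gated than in other cells there and 2.41-fold lower than in the E9.5 gate. Grb10, an imprinted adaptor that dampens signalling of the receptor, was 2.53-fold higher in the E11.5 gate than in other cells. Of 17 genes of the PI3K and Akt pathway, 3 passed 2-fold between the E11.5 populations: the catalytic subunits Pik3cb, at least 4.31-fold higher in the gate, and Pik3ca, 2.15-fold higher, and the regulatory subunit Pik3r1, 2.32-fold lower. At E9.5 Foxo1, a transcription factor that Akt keeps out of the nucleus, was 2.29-fold higher in the gate, and Pik3cb (2.31-fold) and Pik3r1 (at least 2.19-fold) were lower. The genes that bind Igf2 RNA, Igf2bp1, Igf2bp2 and Igf2bp3, with the imprinted H19, did not pass 2-fold between gated and other cells at either stage.

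In the other comparisons the counts over these 41 genes were as follows, each beside the share of all genes. At E8.5, 8 of 36 measured genes passed 2-fold, 5 higher and 3 lower in GFP-positive cells (7.82% and 6.77% of all genes). Between the E9.5 gate and GFP-negative cells it was 4 higher and 4 lower of 40 (5.67% and 6.42%), and between other GFP-positive and GFP-negative cells 6 higher and 3 lower of 40 (8.58% and 5.17%). From E9.5 to E11.5 it was 0 higher and 2 lower of 38 in the gate (6.07% and 11.9%) and 2 higher and 7 lower of 39 in other cells (6.38% and 22.2%). Further genes behind these counts were Grb14, an adaptor, 2.67-fold higher in gated than in GFP-negative cells of E9.5 and 2.62-fold higher in E11.5 than in E9.5 other cells. The regulatory subunit Pik3r3 was 2.53-fold higher in GFP-positive cells at E8.5 and 2.55-fold higher in E11.5 than in E9.5 other cells. Rictor, a subunit of an mTOR complex, was 2.15-fold lower in GFP-positive cells at E8.5 and 2.47-fold lower in E11.5 than in E9.5 other cells. Tsc2, which restrains mTOR, was 2.02-fold lower in GFP-positive cells at E8.5. Igf2bp2 was 2.63-fold higher in GFP-positive cells at E8.5, and H19 was 2.09-fold higher in other GFP-positive than in GFP-negative cells of E9.5. Pik3cb was 4.22-fold lower in GFP-positive cells at E8.5, 5.07-fold lower in gated than in GFP-negative cells of E9.5 and at least 6.32-fold lower in E11.5 than in E9.5 other cells. Igfbp1, Htra1 and Stc2 were lower in E11.5 than in E9.5 other cells as well, by at least 4.63-fold, 3.1-fold and 3.17-fold. Pappa2, a protease related to Pappa, was 2.09-fold lower in other GFP-positive than in GFP-negative cells of E9.5. It was also at least 2.05-fold lower in E11.5 than in E9.5 other cells.

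**Figure D4:**
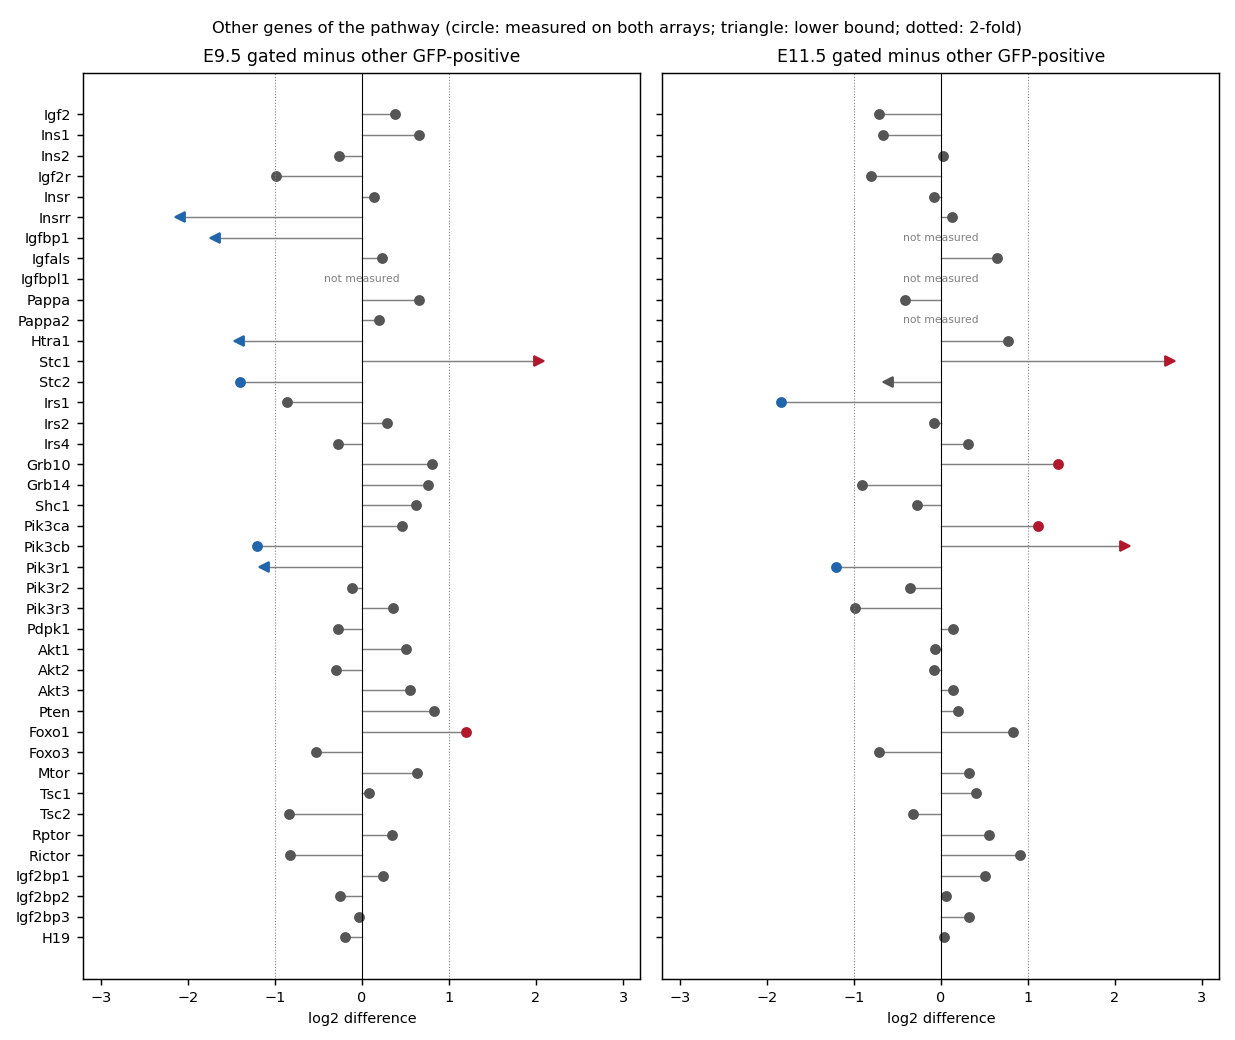
Log2 differences of the 41 other pathway genes between gated and other GFP-positive cells of both stages, E9.5 and E11.5. Circles are measured on both arrays, triangles are bounds as defined in the text, and dotted lines mark 2-fold. Stc1 is past 2-fold to the right in both panels, and Pik3cb lies to the left at E9.5 and to the right at E11.5.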

How the data were processed

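RNA of 7 sorted populations, 10 ng each, was amplified with the WT-Ovation Pico system and labelled with Cy3, per the labels' protocols. The deposited signal intensity is, per the submitters' processing notes, that of Agilent Feature Extraction 10.7.3.1; per the file headers it is background-subtracted and detrended, on a linear scale, with a surrogate for the dimmest spots and no scaling between arrays. The authors' value table held the same intensity for 62976 of 62976 spots on each array. The file coordinates are mm9.

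Here, each array's log2 signal was set against its 75th percentile, outlier spots (127 to 160 per array) were left out, and spots of a probe were averaged. The probe of highest mean level stood for a gene. For a bound, a side not well above background took the lowest well-above level of its array (-5.12 to -3.46), or its own level where that was higher. Of 55681 probes, 26425 were named through RefSeq by accession, including 12 of the 13 of the members, the exception being the probe that represents Igf1. The number of arrays limits the precision. Alternatives were normexp (limma 3.58.1, R 4.3.3), quantile normalization, the unscaled value table, no bound, genes well above background on both arrays, and the mean over probes. The difference step was tested on simulated data. All 8 members were named; other pathway genes were open to naming where they passed 2-fold, and some that did not are named as such; members and lists were chosen with earlier results of these data known. Tables were handled with Python 3.11.15 and pandas 2.3.3.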

Additional observations from a re-analysis of the deposited data

Results flagged for a closer look

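Igf1 by its 909 probe differed in direction between stages: GFP-positive minus GFP-negative cells gave a log2 difference of -1.20 at E8.5, and at E9.5 gated and other GFP-positive cells minus GFP-negative cells gave 2.33 and 2.33. Irs1 ran the other way, with 1.32 at E8.5, -1.36 inside the gate at E9.5 and -0.49 outside it. Between gated and other GFP-positive cells, Htra1 had a log2 difference of -1.41 at E9.5, a bound, and 0.77 at E11.5. Pik3cb had -1.21 at E9.5 and 2.11 at E11.5, the latter a bound. With 1 array per population, none of these differences between stages was tested.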

How the results depend on the processing

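Of 11 member differences past 2-fold, 11 stayed past it with quantile normalization and without the bound, 10 with the unscaled value table, 10 with the mean over probes, 8 of 8 with genes well above background on both arrays, and 5 with normexp correction, and all kept their sign in each. With normexp the count of members at E11.5 (gated against other) went from 3 higher and 1 lower to 1 and 0, that of the gates from E9.5 to E11.5 from 1 higher and 2 lower to 0 and 1, and that of other cells between these stages from 2 lower to 1. With genes well above background on both arrays, the gates across stages gave 0 higher and 1 lower. The mean over probes gave 1 higher member in place of 0 for gated and for other GFP-positive against GFP-negative cells of E9.5. Igf1 read by its 909 probe, an alternative chosen after seeing the data, also gave 1 in both and 1 lower in place of 0 at E8.5. Scaling moved the median over all genes from 0.15 to -0.06 (unscaled, E11.5 gated minus other) and from -0.36 to -0.04 (quantile, other cells across stages). The slide as a block was not run, since 1 array per population leaves no residual degrees of freedom. No paired analysis was possible because the labels give no replicate numbers and each population has 1 array. Igfbp6 was well above background on 1 of 7 arrays, so that its folds are bounds. Igfbp3 was well above it on 4 of 7, and its folds that involve the E11.5 gate are bounds.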
